A study of Homo sapiens with 45 samples.

Results

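The regions described here are the H3K9me3 domains called in HCT116 cells after HNRNPK siRNA, set against those called after a nontargeting siRNA. H3K9me3 is trimethylation of histone H3 at lysine 9. Every domain in the 2 deposited lists was taken: 895 from control cells and 1996 from knockdown cells, together 2891 of the 8560 domains in the 7 lists of the series. HCT116 is an established human colon cancer line. Cells of both groups received 25 nM siRNA and were collected after 72 hours, and no other allele or agent separates the groups in the labels. Each H3K9me3 list is named for 1 siRNA, which has 3 chromatin immunoprecipitation (ChIP) libraries of this mark, and names no replicate. Domain values thus had no replicate lists, and no test between siRNAs was made. RNA came from 4 libraries of each siRNA, with 2 of each group made by the TruSeq kit and 2 by the Ligation kit.

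H3K9me3 is laid down by methyltransferases such as SETDB1 and the SUV39H enzymes, read by HP1 proteins, and removed by demethylases of the KDM4 family. It marks constitutive heterochromatin, silences repeats and clustered gene families such as the KRAB zinc finger genes, and in many cells fills broad domains that lie against the nuclear lamina. The product of HNRNPK, hnRNP K, is an abundant nuclear protein with KH domains that bind poly(C) stretches, and it takes part in splicing, transcription and RNA-guided silencing.

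The depleted transcript was checked in every RNA library. HNRNPK on chromosome 9 measured 939, 974, 824 and 815 CPM (counts scaled to library size) in the controls and 250, 222, 156 and 163 CPM in the knockdown. The groups did not overlap. On the log2 scale the change was -2.18 ± 0.06 (SE), with adjusted p 2.69e-15 in edgeR. Library totals ran from 12107280 to 23633851 counts. Nothing in the labels says that libraries came from separate cultures, so p-values measure the spread between these libraries, which may be technical. Of 8 epithelial markers, EPCAM, CDH1, KRT8, KRT18 and CDX2 were well above 0 in every library, while KRT20 had no count, CDX1 at most 1 and VIL1 at most 6. The read depth behind the domain lists is unknown.

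The knockdown list held more, shorter and lower-scoring domains. Domain widths, nearly all of which lie on a 5 kb grid, had a median of 160 kb in the control list (65 kb to 13.965 Mb). In the knockdown list the median was 105 kb (60 kb to 13.97 Mb). Domains under 100 kb numbered 290 in the control and 891 in the knockdown. Domains of 2 Mb or more numbered 94 in each list and covered 361.5 Mb and 357.1 Mb. The deposited score, a number per domain whose unit is not given in the sources used here, had a median of 0.793 in the control (0.467 to 3.70) and 0.709 in the knockdown (0.452 to 4.4). Weighted by length, the mean score was 1.58 and 1.34.

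Nearly all control domains were found again, and most were wider. Of the 895 control domains, 887 kept at least 1 base in the knockdown list and 762 kept their whole length. Widening by at least 5 kb, the step of the grid, was seen in 779 domains, or 87% (95% Wilson interval 84.7% to 89.1%, which covers the number of domains only). Gaps filled between control domains count towards this reach, and 770 domains widened by that much at free edges alone. Of the 779, 484 widened at both edges and 295 at 1 edge. A larger step was less common: 447 domains widened by at least 25 kb (49.9%), 96 by at least 100 kb (10.7%), and 69 at least doubled in width (7.71%). Both edges stayed in place in 54 domains, an edge moved inward in 117, and 12 domains were split.

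Counted edge by edge, the movement was short and mostly outward. Of the 1774 edges of kept control domains, 1263 (71.2%) moved outward, 372 (21.0%) did not move and 139 (7.84%) moved inward. The median outward step was 15 kb, with quartiles of 10 and 25 kb. Steps of 5 to 20 kb made up 881 of the outward movements, while 69 edges moved by over 100 kb and the largest step was 435 kb.

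**Figure D1:**
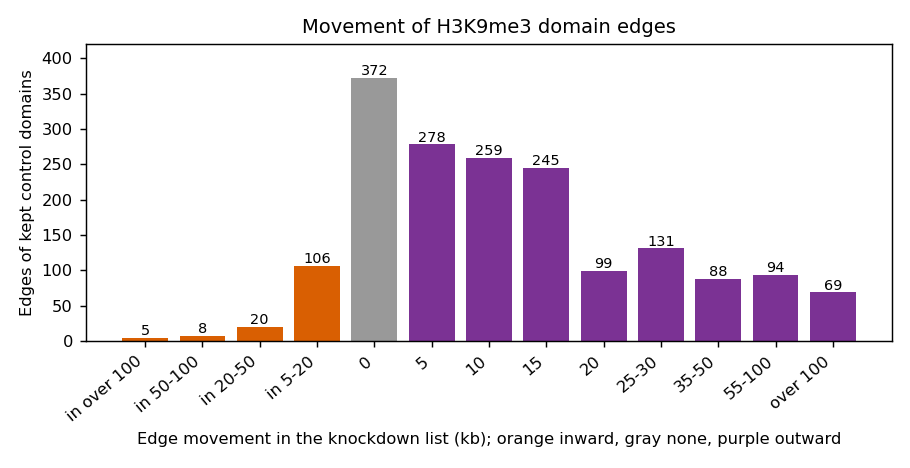
Number of edges of the 887 kept control H3K9me3 domains (vertical axis) by how far each moved in the knockdown list (horizontal axis, kb, in unequal classes). The 372 unmoved edges form the tallest bar, the 1263 outward edges lie to its right with most between 5 and 20 kb, and the 139 inward edges lie to its left.

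The share of domains that widened fell modestly with width, and the added length relative to the domain's own fell steeply. Among control domains under 100 kb, 270 of 290 widened (93.1%). The share was 87.9% of 321 domains of 100 to 500 kb, 78.4% of 190 domains of 500 kb to 2 Mb and 83.0% of 94 domains of 2 Mb or more. The median length added was 25 kb in each of the narrower classes and 15 kb in each of the wider ones. Free edges, filled gaps left out, added 10.9 Mb to the narrowest class, 48.0% of its control length, against 19.5%, 2.71% and 0.62% in the successively wider classes. Domains with no protein-coding gene and domains with 3 or more widened in 87.0% and 88.0% of cases. Within 100 to 500 kb the share was 84.0% without a gene (Wilson 78.1% to 88.6%) and 93.2% with one (87.6% to 96.4%), within 500 kb to 2 Mb it was 73.3% and 80.8%, and under 100 kb it was 93.1% and 93.2%.

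The 3 control domains that gained most at their edges grew by 320 kb or more. Coordinates are in hg38. The domain at chr2:240480001-240555000 (75 kb), which holds ANKMY1, gained 435 kb on its left and 15 kb on its right, and no base of it lay in a lamin B1, H3K9me2 or H3K27me3 domain. Its score was 0.990 in the control and 0.906 over the widened domain. The domain at chr10:27840001-27950000 in ODAD2, which encodes a ciliary dynein docking protein, gained 320 kb, and its score went from 0.579 to 0.708. The domain at chr3:104245001-104365000, which holds no protein-coding gene, gained 320 kb on its right, and its score went from 0.884 to 0.800.

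Fusion of neighbouring domains was rare. Only 30 control domains (3.35%, Wilson 2.36% to 4.74%) shared a knockdown domain with another control domain. Of the knockdown domains that overlapped any control base, 871 overlapped 1 control domain, 12 overlapped 2 and 2 overlapped 3. At chr7:62375001-65045000, 3 control domains of 85, 2265 and 195 kb became 1 domain of 2670 kb with a score of 2.30. At chr6:4125001-4685000, a 560 kb domain over ECI2, which encodes a mitochondrial enoyl-CoA isomerase, took the place of control domains of 90, 140 and 75 kb whose scores were 0.521, 0.571 and 0.500, and its own score was 0.754. At chr10:35765001-38265000, domains of 2145 and 195 kb were joined over a stretch that holds the zinc finger genes ZNF248, ZNF25, ZNF33A and ZNF37A.

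Loss was small. Control length absent from the knockdown list came to 6.365 Mb in 161 pieces and held 5 protein-coding genes. The domain at chr18:37765001-41860000 lost 560 kb, that at chr7:3580001-4575000 in SDK1, a gene for a synaptic adhesion protein, lost 430 kb, and that at chr4:181550001-182335000 at TENM3, which encodes a teneurin, lost 250 kb. The score of the remaining SDK1 domain went from 0.564 to 0.962. Of the 8 domains with no base left, the longest lay at chrY:4050001-4920000, chr3:116450001-116720000 and chr17:70825001-70995000. Their control scores were 0.485, 0.471 and 0.483, close to the lowest score in the control list.

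Length gained in the knockdown list lay mainly at separate sites, not at the edges of control domains. Of 143.6 Mb gained, 110.5 Mb (76.9%) was in 1111 domains that touched no control base, 31.75 Mb (22.1%) in 1231 pieces at edges, and 1.43 Mb (1.00%) in 16 filled gaps between control domains. The median piece was 80 kb at separate sites, 15 kb at edges and 65 kb in gaps. The separate sites made up 55.7% of all knockdown domains. The split depended on the score limit: when the knockdown list was cut from its lowest scores to the control length, 57.0 Mb was gained, of which 52.1% lay at separate sites and 45.8% at edges. With both lists held to scores from the control median, 67.3 Mb counted as gained. That includes knockdown length over control domains that fell below the limit, and 396 sites then counted as separate. Among the separate sites of the full lists, 154 scored that high.

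Separate sites were short, low in score and mostly over 100 kb from control domains. Their widths ran from 60 to 670 kb, 773 were under 100 kb (69.6%) and 63 were at least 200 kb. Their score had a median of 0.596 and quartiles of 0.522 and 0.702, beside 1.07 for the 885 knockdown domains over control domains. Control domains under 100 kb had a median of 0.609 in the control list, and the 286 kept ones had 0.921 in the knockdown list. Scores of at least 1 were reached by 25 sites, 154 (13.9%) were at or above the control median, and 55 lay below the lowest control score. The nearest control domain was a median of 915 kb away. Only 19 sites lay within 50 kb and 67 within 100 kb (6.03%) of a control domain, and 520 (46.8%) lay beyond 1 Mb. These distances were not set against those of other length outside control domains.

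**Figure D2:**
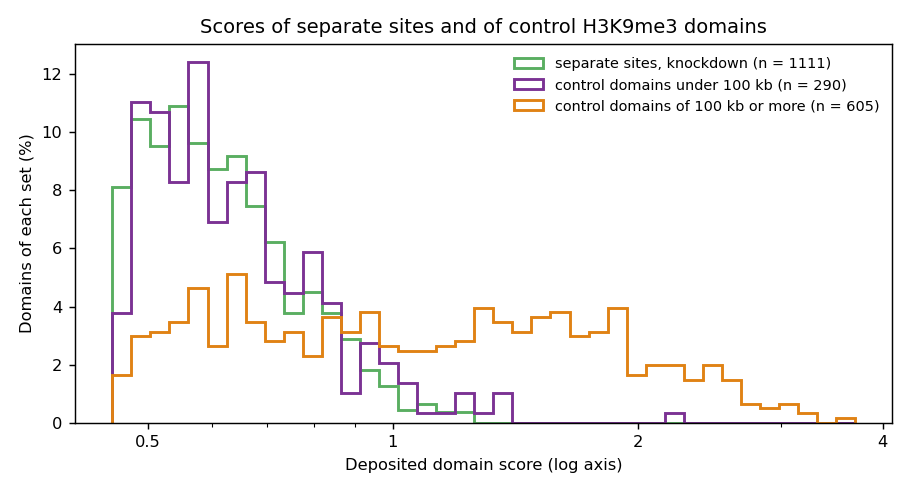
Deposited domain score (horizontal log axis) against the percentage of each set (vertical axis) for 1111 separate sites, 290 control domains under 100 kb and 605 control domains of 100 kb or more. The separate sites and the short control domains lie over each other, with medians of 0.596 and 0.609, and the wider control domains reach further up. Each set is drawn with the scores of its own list, and the scales may differ. In the knockdown list the 286 kept short control domains have a median of 0.921.

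The longest separate sites had some of the lowest scores. They lay at chr8:89040001-89710000 (670 kb, score 0.459, no protein-coding gene), chr3:50710001-51210000 (500 kb, 0.472) in DOCK3, which encodes a neuronal guanine nucleotide exchange factor, and chr1:148455001-148945000 (490 kb, 0.460). The last holds NBPF14 and NOTCH2NLB, members of segmentally duplicated families in which reads cannot always be placed. The highest scores belonged to short sites: 1.26 at chr22:19270001-19360000 (90 kb), 1.24 at chr13:112345001-112460000 at SPACA7, a sperm acrosome gene, and 1.22 at chr9:111695001-111800000 at SHOC1, a meiotic recombination gene. The SPACA7 site lay wholly in control lamin B1 and H3K27me3 domains, and no lamin B1 domain covered it in the knockdown.

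The other chromatin lists set the gained length apart from the kept length. Lamin B1 domains of control cells covered 84.3% of kept H3K9me3 length, 29.9% of edge length and 14.5% of separate sites, beside 15.1% of the length outside both H3K9me3 lists. H3K9me2 domains covered 83.7%, 21.5% and 8.60% of these, beside 5.89% outside, so separate sites lay slightly below the outside level for lamin B1 and above it for H3K9me2. H3K27me3, the Polycomb mark, was lowest in the kept length and covered 13.3% of it, 42.3% of edge length and 35.8% of separate sites, beside 29.7% outside. In all, 642 separate sites (57.8%) had no base in a control domain of these 3 lists, 392 (35.3%) lay at least 50% in H3K27me3 and 146 (13.1%) at least 50% in lamin B1. The H3K27me3 and lamin B1 sets overlap, and 124 sites lay at least 50% in both. The knockdown lists of lamin B1 and H3K27me3 covered 6.53% and 34.4% of the separate length. Outside both H3K9me3 lists they covered 5.80% and 28.4%, so lamin B1 cover was lower than in control cells there as well.

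Gene content of the gained length lay between that of kept domains and that of the rest of the genome. Placed by 50% or more of the gene body, protein-coding genes numbered 2.22 per Mb in kept control length, 4.69 at edges, 6.29 in filled gaps, 4.78 at separate sites and 7.80 outside both lists. No protein-coding gene lay in 761 of the separate sites (68.5%), and 32 sites held 3 or more. Sites with 3 or more genes had a median width of 145 kb and a median score of 0.637, against 75 kb and 0.583 for sites with none.

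The other antibodies widened less often. Among lamin B1 domains, 97 of 880 control domains widened (11.0%), and 75.6% of the 28.4 Mb gained was at separate sites. That list shrank: its covered length was 0.742 of the control and 266.8 Mb was lost. No base was kept in 361 of its control domains, which therefore could not widen. Among H3K27me3 domains, 600 of 1772 widened (33.9%), and of 15.7 Mb gained 68.5% was at edges and 27.3% at 22 separate sites. H3K27me3 covered length was 0.963 of the control, with 46.5 Mb lost and no base kept in 139 domains. These values come from 1 list per siRNA and antibody, and the difference from H3K9me3 was not tested.

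Chromosomes differed in how much they gained. Covered length in the knockdown was 1.49 times the control on chromosome 12, 1.40 on chromosome 17 and 1.39 on chromosome 1, and 1.03 on chromosome 21, 1.02 on chromosome 18 and 0.93 on chromosome Y. Separate sites numbered 132 on chromosome 2 and 127 on chromosome 1, against 7 on chromosome 18, 6 on chromosome 19, 2 on chromosome 21 and 1 on chromosome Y. They took up 5.65% of chromosome 12 and 0.44% of chromosome 21. Chromosome 19, which holds the largest zinc finger clusters and 24.8 protein-coding genes per Mb, gained 1.02 Mb, of which 43.1% was separate. Widened domains made up 100% of 18 on chromosome 20, 94.7% of 19 on chromosome 11 and 94.5% of 73 on chromosome 4, and 68.8% of 16 on chromosome Y. Across the 24 chromosomes, which differ in length and in control coverage, gene density and the share taken up by separate sites had a Pearson r of -0.01 and a Spearman rho of 0.29. This rested on chromosome 19, without which r was 0.46 and rho 0.43 over 23 chromosomes.

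**Figure D3:**
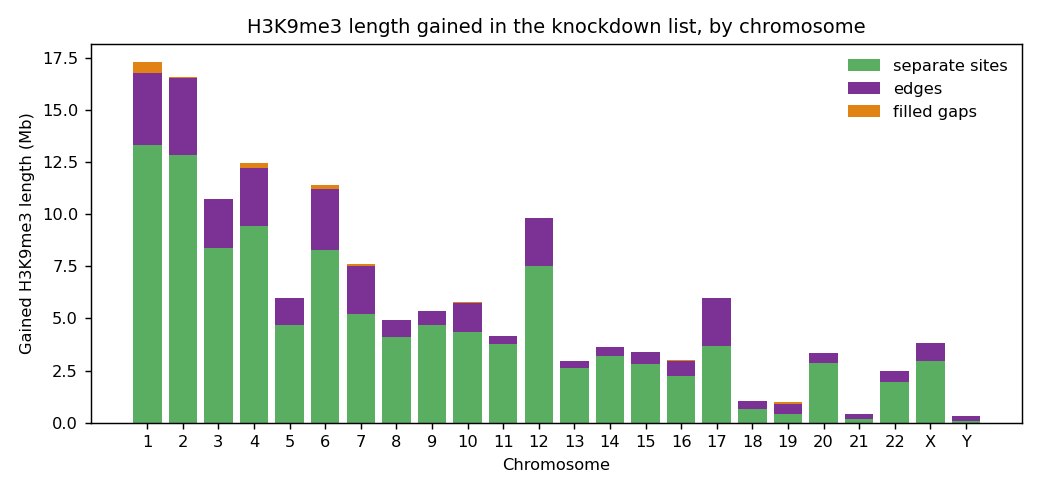
H3K9me3 length gained in the knockdown list (vertical axis, Mb) by chromosome (horizontal axis), stacked into separate sites, edges and filled gaps. Chromosomes 1 (17.3 Mb) and 2 (16.6 Mb) gained most, chromosome 12 stands above its neighbours at 9.83 Mb, and chromosomes 18, 19, 21 and Y gained at most 1.07 Mb.

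The score of kept domains moved in opposite directions at the 2 ends of the width range. Over all 887 kept domains the median change, knockdown minus control, was 0.147, and 64.7% had the higher score in the knockdown. In domains under 100 kb the median rose from 0.609 to 0.921 and 96.2% were higher (Wilson 93.2% to 97.8%). Domains of 100 to 500 kb had a median change of 0.231, with 83.3% higher. Those of 500 kb to 2 Mb had a median change of -0.114, with 16.9% higher (12.3% to 22.9%). Of the 94 domains of 2 Mb or more, 2 were higher (2.13%), with a median change of -0.184. Across the kept domains, which share 2 lists and their scales, log10 width and score change had a Pearson r of -0.66, and control and knockdown scores one of 0.86.

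**Figure D4:**
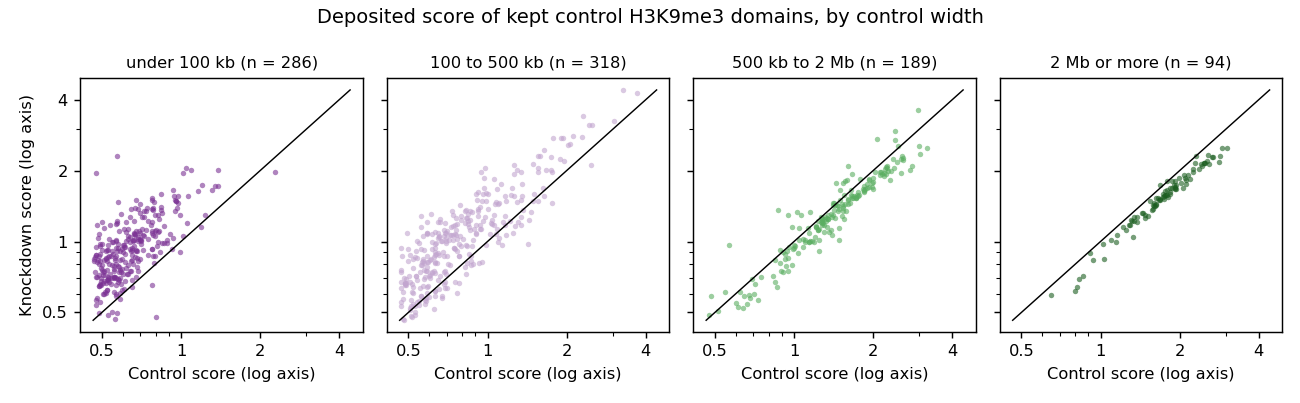
Control score (horizontal log axis) against knockdown score (vertical log axis) for kept control H3K9me3 domains, 1 point per domain, in 4 panels by control width. Points on the black line have equal scores. Most of the 286 short domains lie above the line and nearly all of the 94 domains of 2 Mb or more lie below it.

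Because scores may be scaled differently in each list, the direction in wide domains depends on the scale. When knockdown scores were multiplied by 1.08, so that the length-weighted mean over kept domains was the same in both lists, 76.8% of domains were higher. The shares were then 97.2%, 92.5%, 46.6% and 22.3% from the narrowest to the widest class. The order of the classes was the same, and the median change was 0.377 in the narrowest and -0.06 in the widest. With domains split at the control median score, short domains of high score still had higher knockdown scores (92.2% of 51), as did those of low score (97.0% of 235). Domains whose edges moved by at most 5 kb, where added length can alter the mean little, gave 95.8% higher under 100 kb (n = 48), 60.0% at 100 to 500 kb (n = 55), 25.6% at 500 kb to 2 Mb (n = 39) and 0 of 23 higher at 2 Mb or more. At 100 to 500 kb their median change was 0.05, below the 0.231 of all domains of that width.

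Lamin B1 cover and gene content changed with width and were looked at within width classes. Domains at least 50% covered by control lamin B1 had a higher score in 29.2% of 384 cases, and those covered less in 91.8% of 503. Within 100 to 500 kb these shares were 67.7% of 99 and 90.4% of 219, and within 500 kb to 2 Mb 11.6% of 173 and 75% of 16. No such gap was seen under 100 kb (95.8% of 24 and 96.2% of 262) or at 2 Mb or more (2.27% of 88 and 0 of 6). Domains without a protein-coding gene were higher in 79.4% of 461 cases and those with 3 or more genes in 43.6% of 133, while under 100 kb the shares were 96.2% without and 95.9% with a gene. Zinc finger domains had mostly higher scores. The 22 domains with 3 or more ZNF genes had a median change of 0.23, with 81.8% higher, and the 33 with 1 to 2 ZNF genes had a median change of 0.555, with 84.8% higher. In the other 832 kept domains the median was 0.134, with 63.5% higher. The zinc finger comparison was not made within width classes, and of all kept domains of 100 to 500 kb 83.3% were higher.

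RNA of the genes in these lengths was compared in 1 fit over 14237 tested genes, of which 71.2% passed an adjusted p under 0.05 in edgeR (34.9% higher, 36.4% lower). Genes were placed where at least 50% of the body lay, and in bulk RNA fewer expressing cells and less RNA per cell cannot be told apart. In kept control length, 414 of 2570 positioned genes had enough counts to be tested, and 1630 had no count in any library. Of the 414, 200 were higher and 73 lower, with a median log2 fold change of 0.28 beside -0.01 over all tested genes. At edges and in filled gaps, 23 of 75 were higher and 29 lower (median -0.08). At separate sites, 119 of 308 were higher and 95 lower (median 0.02), shares of 38.6% and 30.8% that lie near the background. Genes in gained length thus fell and rose in about the proportions of all tested genes.

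Zinc finger genes, most of which encode sequence-specific repressors, made up much of the rise in kept domains. Over all 349 tested genes named ZNF and a number, 53.6% were higher. In kept control length 115 of 171 were higher and 8 lower, with a median log2 fold change of 0.48. Outside both lists, 60 of 157 were higher and 38 lower, with a median of 0.08. The few ZNF genes in gained length also mostly rose. At separate sites 7 of 11 were higher and 1 lower (median 0.55). At edges and in filled gaps 5 of 8 were higher and 1 lower (median 0.23). The median level of the 171 genes was 8.70, 9.25, 10.1 and 10.4 CPM in the 4 controls and 12.9, 13.0, 13.4 and 11.7 CPM in the 4 knockdown libraries, so the groups did not overlap. On chromosome 19, 80 of 114 ZNF genes in kept domains were higher and 3 lower, against 9 and 9 of 33 outside both lists. On other chromosomes the counts in kept domains were 35 higher and 5 lower of 57. The other 243 genes of kept length had 85 higher and 65 lower (median 0.08). Many ZNF genes are close paralogs that can share reads. The difference between ZNF genes inside and outside domains was not tested, and the rise of the family as a whole was an earlier result of these libraries.

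Most ZNF genes of kept length lay in domains whose score was higher in the knockdown. The score is that of the whole domain, and a link between score and RNA was not tested. Of the 171 ZNF genes, 153 lay in 40 such domains, and 106 of these genes rose and 7 fell. The other 18 lay in 6 domains whose score was lower, and 9 of them rose and 1 fell. Among other genes, 60 of 185 rose and 55 fell where the domain score was higher, and 25 of 58 rose and 10 fell where it was lower. Over the 414 genes, which share 184 domains, domain score change and log2 fold change had a Pearson r of -0.04 and a Spearman rho of -0.10.

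**Figure D5:**
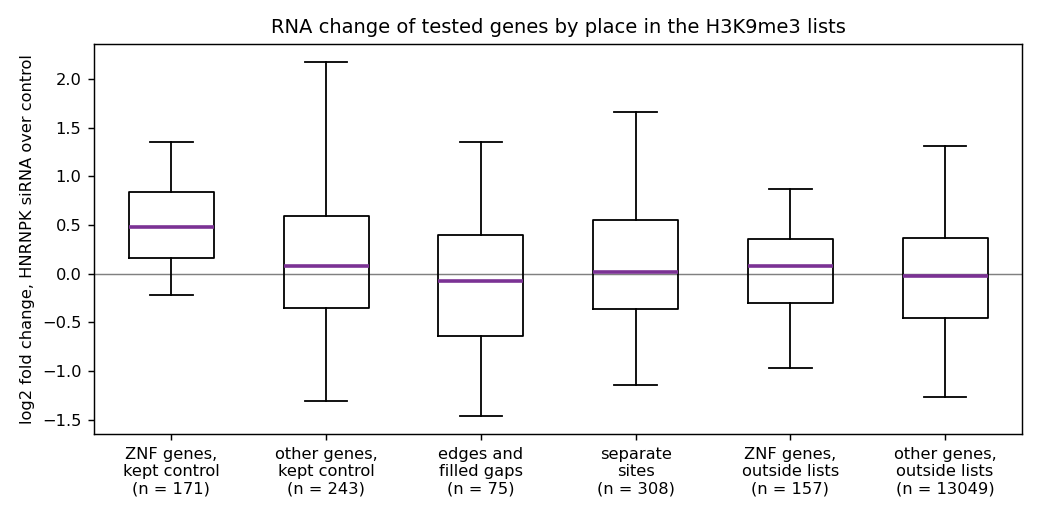
Log2 fold change of RNA, HNRNPK siRNA over control (vertical axis), for tested genes by place in the H3K9me3 lists; boxes span the quartiles, the line is the median and whiskers reach the 5th and 95th percentiles. The ZNF genes of kept control domains have a median of 0.48 and a lower quartile of 0.16, above the medians of the other sets drawn. ZNF genes of gained length are not drawn apart from the other genes there.

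Individual genes in kept domains moved in both directions. ZNF192P1, a transcribed zinc finger pseudogene on chromosome 6, measured 1.91, 2.27, 2.80 and 2.58 CPM in controls and 15.0, 16.5, 20.0 and 19.2 CPM in the knockdown, a rise of 2.88 ± 0.12 (SE) on the log2 scale with adjusted p 1.45e-13 in edgeR. Its own 65 kb domain widened to 90 kb and its score went from 0.775 to 1.5. KLRD1, which encodes the CD94 receptor of natural killer cells, and APOL6, an apolipoprotein L gene, rose by log2 fold changes of 2.80 ± 0.19 and 2.66 ± 0.17. The readthrough transcript ZNF8-ERVK3-1 rose by 2.79 ± 0.17, and its reads cannot be told from those of ZNF8 and ERVK3-1, which it overlaps. The largest fall was in LONRF2, a ring finger gene, from 20.9, 27.7, 25.6 and 25.8 CPM to 4.08, 5.26, 2.85 and 4.33 CPM (log2 fold change -2.59 ± 0.14). FN3K, which encodes a kinase that deglycates proteins, had a log2 fold change of -2.20 ± 0.22, the noncoding LINC01145 one of -2.14 ± 0.18 and WWC3 one of -2.07 ± 0.17. Named genes of each class were chosen for groups that did not overlap, which held for 27.8% of all tested genes above and 28.1% below the controls. Adjusted p was at most 3.94e-08 in edgeR for these 8. The FN3K domain widened from 100 to 120 kb and its score went from 0.818 to 1.20, while the APOL6 domain went from 0.539 to 1.18, so a higher score stood beside a fall in FN3K and a rise in APOL6.

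At edges and in filled gaps the named falls were larger than the named rises, while over all 75 tested genes the 5th and 95th percentiles were -1.49 and 1.47. GPC1, which encodes the heparan sulfate proteoglycan glypican 1, lay in the 435 kb extension beside ANKMY1. It measured 108, 71.7, 133 and 117 CPM in controls and 22.5, 22.3, 47.7 and 39.5 CPM in the knockdown (log2 fold change -1.74 ± 0.11, adjusted p 8.39e-11 in edgeR). PRKACB, a catalytic subunit of protein kinase A, had control domains over 33% and 14% of its body that became 1 domain of 495 kb over the whole gene. Its RNA went from 410, 397, 377 and 396 CPM to 156, 149, 134 and 134 CPM (log2 fold change -1.46 ± 0.04, adjusted p 2.69e-15 in edgeR). VIM, the gene of the intermediate filament vimentin, had a log2 fold change of -1.68 ± 0.23 at 0.741 to 3.45 CPM, and SLFN5, a schlafen gene, one of -1.43 ± 0.10. The named rises, among genes that passed the limits on level and overlap, were OTUD3, a deubiquitinase gene (log2 fold change 0.88 ± 0.05), ZNF304 (0.87 ± 0.08), CLK4, a kinase of splicing factors (0.75 ± 0.10), and H2BC12, a histone H2B gene (0.72 ± 0.10). The largest adjusted p of these 8 in edgeR was 2.96e-06. Reads of H2BC12 may be shared with its near-identical histone paralogs, and its span overlaps H4C9. VIM, GPC1, APOBEC3B, RSPH3, HNRNPK and KDM4A overlap genes with antisense names. Reads of such pairs cannot be told apart while the strand setting of the counting is not given. Other named genes, KLRD1 and IKZF3 among them, overlap further annotated genes.

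The largest rise among the named genes lay at a separate site. IKZF3, which encodes the lymphoid transcription factor Aiolos, measured 0.238, 0.378, 0.334 and 0.384 CPM in controls and 6.13, 6.96, 10.5 and 8.25 CPM in the knockdown (log2 fold change 4.50 ± 0.22, adjusted p 2.08e-12 in edgeR). Of its body, 65.0% lay in a 75 kb site called in the knockdown with a score of 0.457. That is below the lowest control score of 0.467, so a lowest score common to both lists leaves this site out. ITGAM, the integrin subunit CD11b of myeloid cells, rose from 0.925 to 1.97 CPM in controls to 6.22 to 7.72 CPM (2.40 ± 0.18). The blood cell marker PTPRC had at most 2 counts in a library and CD3E none, and 7 such markers summed to at most 0.846 CPM in controls and 1.36 CPM in the knockdown. APOBEC3B, a cytidine deaminase gene, and ATAD3C rose by 2.24 ± 0.09 and 2.18 ± 0.15, and both have close paralogs that could share their reads. Among the falls, MAN2B2, an alpha-mannosidase gene, went from 67.3, 59.2, 71.5 and 70.2 CPM to 13.9, 14.3, 14.6 and 17.7 CPM (log2 fold change -2.15 ± 0.07, adjusted p 1.21e-14 in edgeR). RSPH3, a gene of the ciliary radial spoke, went from 49.6, 41.2, 68.3 and 64.3 CPM to 12.6, 12.2, 11.5 and 12.7 CPM (log2 fold change -2.16 ± 0.10). TMBIM4 (-1.75 ± 0.12) and the ligand gene WNT3A (-1.64 ± 0.23) fell as well. Among these 8 the largest adjusted p in edgeR was 2.49e-06.

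Promoters that lay whole in gained length are shown for the 2 largest rises and 2 largest falls among the named genes of edges and separate sites with a window in the RefSeq table, which leaves out IKZF3 and APOBEC3B. Each runs 5′ to 3′ from 250 bases before to 50 bases after the RefSeq start (GRCh38.p14), and capitals mark CG dinucleotides, the sites of DNA methylation, which read the same on both strands. These promoters, picked by fold change, held from 6 to 28 CG and are too few to relate CG count to the direction of change. ZNF304 (chr19:57351021-57351320, plus strand) had 20 CG and rose, ATAD3C (chr1:1449439-1449738, plus strand) had 6 and rose, RSPH3 (chr6:159000138-159000437, minus strand) had 15 and fell, and MAN2B2 (chr4:6574939-6575238, plus strand) had 28 and fell.
ZNF304: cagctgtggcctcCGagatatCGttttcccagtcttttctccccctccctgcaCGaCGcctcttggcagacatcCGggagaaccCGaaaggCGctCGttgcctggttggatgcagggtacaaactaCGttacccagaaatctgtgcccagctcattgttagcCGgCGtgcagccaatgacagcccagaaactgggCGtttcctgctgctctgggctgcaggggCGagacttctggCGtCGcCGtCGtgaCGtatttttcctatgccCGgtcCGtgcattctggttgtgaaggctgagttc
ATAD3C: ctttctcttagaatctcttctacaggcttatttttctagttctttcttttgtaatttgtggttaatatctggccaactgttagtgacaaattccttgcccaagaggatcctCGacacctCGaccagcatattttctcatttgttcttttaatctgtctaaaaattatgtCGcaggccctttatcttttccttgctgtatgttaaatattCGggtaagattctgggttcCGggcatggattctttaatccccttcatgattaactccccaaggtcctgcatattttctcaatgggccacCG
RSPH3: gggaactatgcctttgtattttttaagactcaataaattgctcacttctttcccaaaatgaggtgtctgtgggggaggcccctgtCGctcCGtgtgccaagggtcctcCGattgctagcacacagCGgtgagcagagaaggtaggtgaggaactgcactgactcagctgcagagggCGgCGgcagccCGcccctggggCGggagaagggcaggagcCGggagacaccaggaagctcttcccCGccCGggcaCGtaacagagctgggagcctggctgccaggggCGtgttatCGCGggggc
MAN2B2: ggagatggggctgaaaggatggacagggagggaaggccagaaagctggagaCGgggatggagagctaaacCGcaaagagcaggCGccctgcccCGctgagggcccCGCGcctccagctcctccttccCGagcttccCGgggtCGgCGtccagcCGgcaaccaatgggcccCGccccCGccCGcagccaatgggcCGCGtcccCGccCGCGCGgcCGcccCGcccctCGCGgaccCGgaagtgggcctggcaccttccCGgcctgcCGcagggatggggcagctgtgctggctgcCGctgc

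Over all protein-coding promoter windows of this length in the table (22199 windows of 15843 genes), the median CG count was 21 and 62.3% held 15 or more. Windows whole in kept control length had a median of 12, with 45.3% at 15 or more (1615 windows). At edges and in filled gaps the median was 16 and the share 52.7% (224 windows), and at separate sites 16 and 53.0% (621 windows). Outside both lists the median was 22 and the share 64.1%. The promoters taken into H3K9me3 length thus lay between those of kept domains and those outside in CG content.

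Genes of the H3K9 methylation machinery moved in both directions. Of the 23 listed, 22 were tested (EHMT2 was not), 8 were higher and 7 lower, with a median log2 fold change of 0.03, shares near those of all tested genes (34.9% higher and 36.4% lower). KDM4B, which encodes a demethylase of H3K9me3, measured 68.4, 39.9, 90.7 and 83.4 CPM in controls and 14.5, 13.8, 20.7 and 19.3 CPM in the knockdown (log2 fold change -2.03 ± 0.12, adjusted p 3.64e-11 in edgeR). Its paralog KDM4A rose from 85.7, 84.4, 103 and 108 CPM to 168, 160, 179 and 183 CPM (0.87 ± 0.05, adjusted p 7.81e-12 in edgeR), and neither gene's groups overlapped. The methyltransferase gene SETDB1 had a log2 fold change of -0.04 with an adjusted p of 0.561, SUV39H1 one of 0.03 with 0.744, and TRIM28, the corepressor that brings SETDB1 to zinc finger proteins, one of 0.06 with 0.208. SUV39H2 (-0.38), EHMT1 (-0.42) and TASOR (-0.37), a subunit of the HUSH silencing complex, passed as lower, and ATF7IP (0.46), a partner of SETDB1, passed as higher.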

How the data were processed

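ChIP libraries of HCT116 cells were aligned to hg38 with fastp 0.23.2 and Bowtie2 2.5.1 and handled with deepTools 3.1.3, after bcl2fastq 2.20, per the submitters' processing notes. The deposited domain lists give a position, a score per domain and a width, with 1 list per antibody and siRNA. How domains were called and scored, how input was used and whether libraries were pooled is not given in the sources used here. RNA reads were aligned to hg38 with STAR 2.7.1a and counted with featureCounts of Subread 2.0.6, per the submitters' processing notes, and the authors deposited raw counts per gene. The strand setting is not given in the sources used here.

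Gained length was divided into edges, filled gaps and separate sites base by base, in Python 3.11.15. The division was tested on simulated intervals. Counts were fitted in edgeR 4.0.16 (filterByExpr, TMM, quasi-likelihood, library kit as a term) over 4 nontargeting and 4 HNRNPK siRNA libraries with Benjamini-Hochberg adjustment, and tested on simulated counts. CPM values are TMM-scaled, except those of marker genes, which are per library total. Each SE was derived from the test, as the absolute log2 fold change divided by the square root of the quasi-likelihood F statistic. Of 28278 gene names, 27622 matched RefSeq. The 2 Scramble libraries were not used. Wilson intervals are at 95%. Named genes were HNRNPK, the 4 largest rises and falls per class with average log2 CPM of at least 1 and groups that did not overlap, and machinery genes past the threshold that moved by 0.5 or more on the log2 scale. Named regions were the 3 first of each kind by length added, control domains joined, width, score or length lost. The other machinery genes given, the markers and the ZNF split by chromosome were chosen after their values were seen. The domains, gene lists and tests were chosen with earlier results of these data known. Alternatives changed the score or width limits of the lists, the joining of domains, the RNA fit (DESeq2 1.42.0 among them) and the libraries used.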

Additional observations from a re-analysis of the deposited data

Results flagged for a closer look

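In 5 of 54 groups of 4 libraries of the named genes, 1 library lay far from the other 3 by Dixon's criterion, where chance marks about 1 in 20 groups. In controls these were KLRD1 in replicate 1 (0.715 CPM, low), APOL6 in replicate 4 (1.59 CPM, high), CLK4 in replicate 2 (12.2 CPM, high) and H2BC12 in replicate 2 (8.49 CPM, low). In the knockdown it was SLFN5 in replicate 1 (12.8 CPM, high). All 5 genes kept their direction and stayed past the threshold without that library.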

How the results depend on the processing

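The gained length depended on the score limit. With both lists held to scores from the control median, the length ratio was 1.05, gained length 67.3 Mb, gaps 0.33%, widened 82.1%, fused 1.79% and the median score change -0.0600. With the knockdown list cut to the control length, these were 0.993, 57.0 Mb, 2.11% in gaps and 75.5% widened, with edges at 45.8%, separate sites at 52.1% and a score change of 0.192. With a minimum of 100 kb they were 1.15, 99.4 Mb, 0.40% in gaps, 84.0% widened, 2.31% fused and a score change of -0.000656, since the short domains were left out. Under the control-median and 100 kb limits, gained length includes knockdown length over control domains that the limit left out. Joining within 50 kb gave 24.3% at edges, 1.93% in gaps, 73.8% separate and 6.58% fused. Widening of 25 kb held for 49.9%. Scaling scores to one mean, chosen after seeing the data, gave a change of 0.219. The wider classes kept their negative score change under each limit but not their share of higher scores under scaling. A lowest score common to both lists, autosomes alone, a minimum of 10 kb and separate sites taken beyond 50 kb changed these values little.

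Genes past the threshold numbered 9797 to 10163 without each library in turn (263 to 277 in kept length, 48 to 54 at edges and gaps, 206 to 215 at separate sites). By any overlap they were 214 at edges and gaps and 448 at separate sites, where more genes were placed. With the replicate number as a block (replicate block), 10208 passed. Numbers correlated from 0.0999 to 0.402 across libraries, and at most 0.0652 with the kit removed, so they were not taken as pairs. All 27 named genes kept direction and threshold under each fit. In kept domains 99 to 119 ZNF genes were higher over the fits. Depth behind the lists is unknown, so weak domains near the score limit cannot be told from absent ones.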

Other observations

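Gene families differed in where they lay. Of 20037 protein-coding genes, 7.2% lay in kept control domains and 2.64% at separate sites. Keratin and keratin-associated genes had 83 of 149 in kept domains (55.7%) and 17 (11.4%) at separate sites. Those 17 lay at a pair of sites, chr12:52445001-52520000 with KRT5, KRT6A, KRT6B and KRT6C (score 0.826) and chr21:44545001-44680000 with 13 keratin-associated genes (score 0.880), and none had enough counts to be tested. The chromosome 21 site is 1 of 2 on that chromosome. Protocadherin clusters had 35 of 53 genes in kept domains and none at separate sites, and olfactory receptors 146 of 390 in kept domains, 10 at edges and 5 at separate sites. No HOX gene (0 of 39) lay in either list, nor did any of 22 UGT genes.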
